A study of Mus musculus with 57 samples.

Results

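The 9 genes described here are Jcad, the caveolin genes Cav1 and Cav2, the genes of the Hippo pathway's co-activators and their DNA-binding partner (Yap1, Wwtr1 and Tead1), and 3 genes switched on by YAP (Ccn1, Ccn2 and Amotl2). They were listed by name, 9 of the 12887 genes measured, to be described by state with and without cells that were low in the tumour label or rich in leukocyte transcripts. All 9 had values. The list was drawn up with earlier results of these data known, Jcad having stood out in the comparison of the 2 states, so the differences between states below are a description of these cells and carry no test of the 9 genes.

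Hippo signalling is a kinase cascade in which the LATS kinases, switched on by the MST kinases, phosphorylate the co-activators YAP (Yap1) and TAZ (Wwtr1) and keep them out of the nucleus. When the cascade is off, YAP and TAZ bind TEAD factors such as TEAD1 on DNA and turn on genes for growth, matrix and adhesion. Cell shape, stretch and contact feed into the pathway, and caveolae, the flask-shaped membrane pits built from caveolins and cavins, are one of the structures that respond to stretch. Jcad encodes a cell junction protein first described in endothelial cells, which in liver cells has been reported to bind the kinase LATS2.

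The labels name all cells as RM1 cells, a mouse prostate cancer line. The line carries genes for the cyan fluorescent protein eCFP and for luciferase (Luc2). The cells were stained with the membrane dye PKH26, which is diluted at each division, and injected into the hearts of C57BL/6 mice. Dormant cells were single cells sorted from bone that had kept the dye, and proliferating cells were those without it. The 57 cells, 28 dormant (6 mice) and 29 proliferating (6 mice), came from 8 mice in all and were taken between day 13 and day 26. Cells of both states came from 4 mice (360, 369, 452 and 1185), while mice 244 and 1184 gave dormant cells and mice 268 and 288 proliferating cells. Mouse 1185 gave 11 of the dormant cells and mouse 369 gave 13 of the proliferating cells, so single mice weigh heavily on any count of cells. The mouse was the replicate, and dye retention, not a growth assay, defined the states.

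Some sorted cells were low in the tumour label, though Luc2 was above 0 in all 57 cells and eCFP in 56. In 6 dormant cells eCFP was under 100 normalised reads, a cut-off chosen with the values in view, with 87.6 in the highest cell under it and 327 in the lowest cell over it. These low-label cells came from mice 244, 360, 369 and 1184 and had 9 to 18 of 18 pan-leukocyte genes above 0, with a summed level of 17811 to 65738 normalised reads. The other 51 cells, called labelled below, all had eCFP, Luc2 and the keratin gene Krt8 above 0. Of these, 9 of the 22 dormant and 9 of the 29 proliferating cells still had at least 5 of the 18 leukocyte genes above 0. They are called leukocyte-rich, a name for this count. Arhgdib was above 0 in all 57 cells, while Cd53, Cytip and Ptprc were above 0 in 31, 22 and 7 of the 51 labelled cells. Part of the count thus comes from genes seen in most labelled cells, Arhgdib and Cd53. Some leukocyte-rich cells held far more. Dormant cell 105 of mouse 1184 had all 18 leukocyte genes above 0. Lyz2, a leukocyte gene outside the 18, was at 95205 normalised reads in it and at 48048 in cell 104. In leukocyte-rich proliferating cell 113 of mouse 360 Lyz2 was at 0. The source of leukocyte RNA in these cells was not tested. The median number of leukocyte genes above 0 was 4 in labelled dormant cells and 3 in labelled proliferating cells. Recovered reads per cell ran from 1310736 to 5306777 in dormant cells and from 945351 to 5165965 in proliferating cells. Median numbers of genes above 0 were 7238 in dormant and 7649 in proliferating cells. One proliferating cell, cell 6 of mouse 268, had 2399 genes above 0, the fewest of all cells, and stood apart in several of the genes below, so values without it are given beside many of the results.

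Jcad was the gene of the list that differed most between the states, and fewer of the dormant cells had its transcript. Jcad was above 0 in 13 of 28 dormant cells, with a lowest, median and highest value of 0, 0 and 315 normalised reads. In proliferating cells 24 of 29 had it, with a lowest, median and highest value of 0, 136 and 2199. Among the cells with the transcript, pooled over mice, the median was 93.4 in dormant and 159 in proliferating cells, and the highest value belonged to cell 6 of mouse 268. In mouse 1185, which held 7 of the 13 dormant cells with Jcad, that order was the other way, the median being 97.6 in those 7 cells, against 74.3 in the 4 proliferating cells with Jcad. Mean log2 levels, taken as log2(normalised reads + 1) over the cells of a mouse, were 0, 0, 2.61, 1.30, 1.65 and 4.41 in dormant cells of mice 244, 360, 369, 452, 1184 and 1185. In proliferating cells they were 9.80, 7.25, 6.97, 5.59, 5.57 and 5.24 in mice 268, 288, 360, 369, 452 and 1185. All 6 dormant means thus lay under all 6 proliferating means, which held for no other gene of the list and for 0.363% of the 11843 genes tested.

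**Figure D1:**
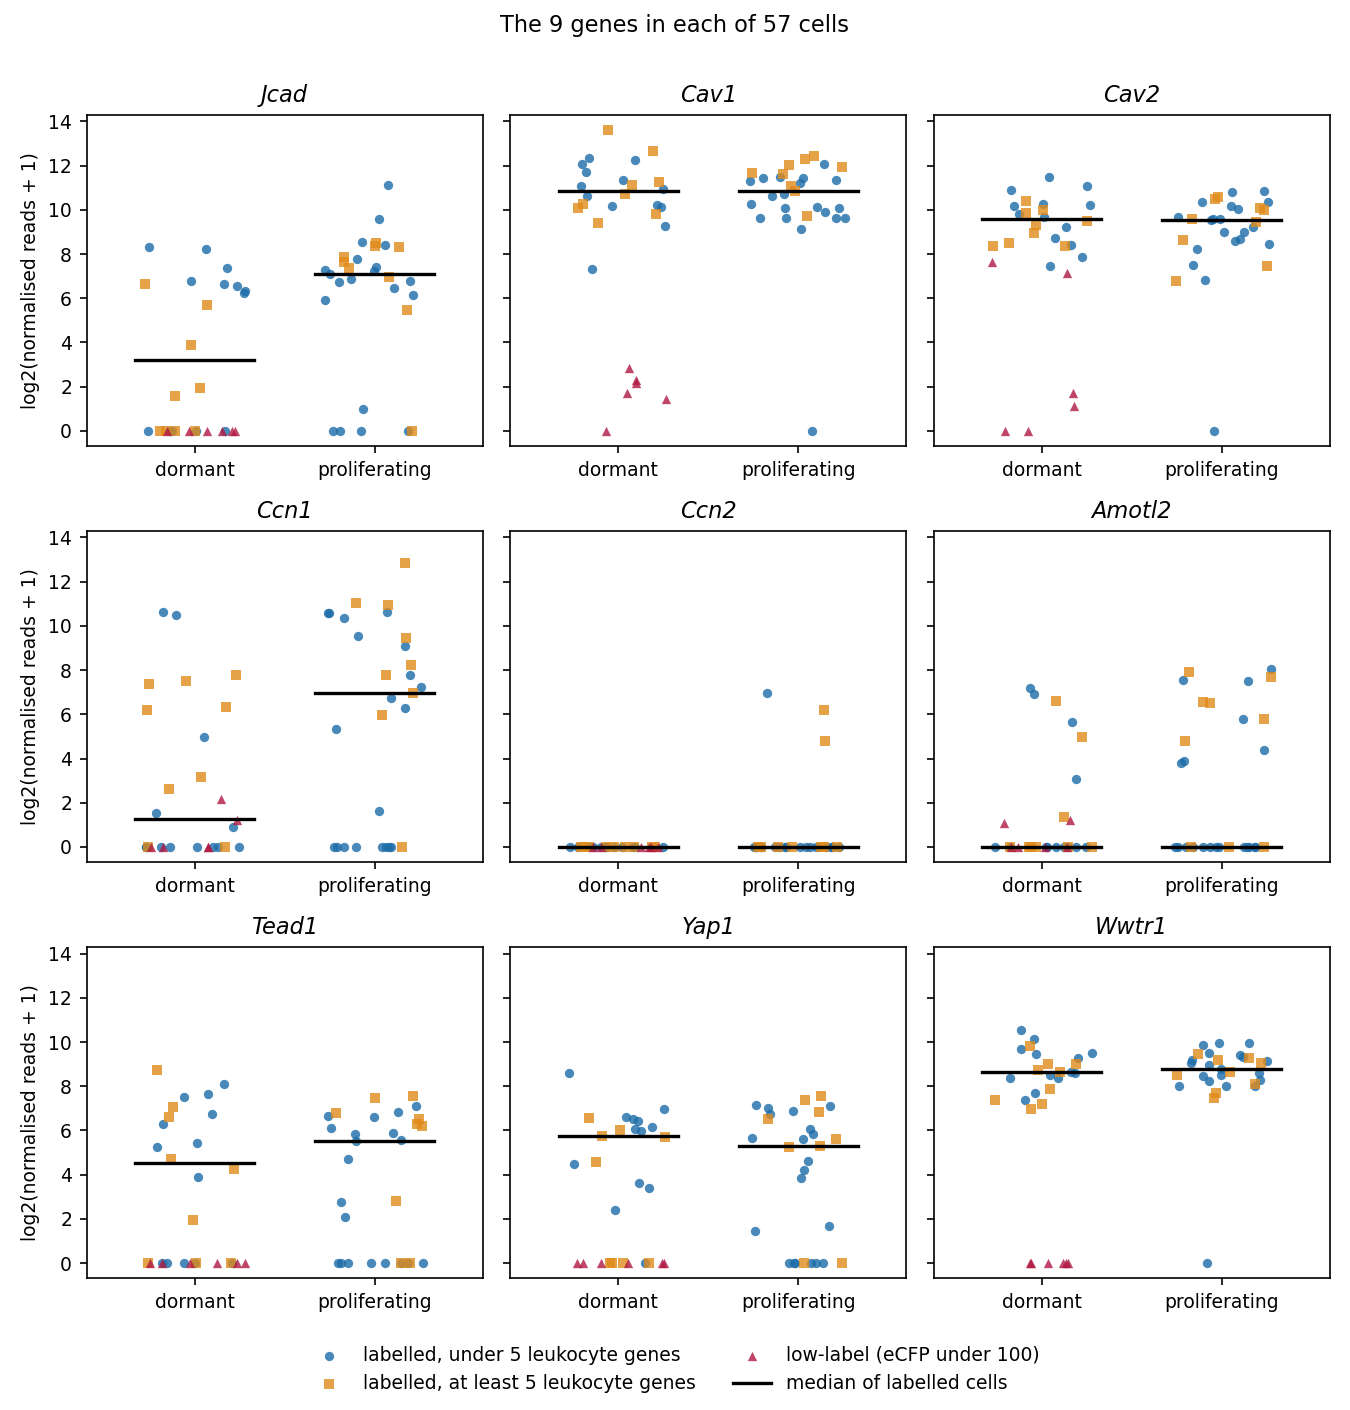
Level of each gene in every cell as log2(normalised reads + 1), dormant cells left and proliferating cells right. Points are cells, coloured by label and leukocyte class, and black lines are medians over labelled cells. The 6 low-label cells (red triangles) lie at 0 to 6.26 normalised reads in every panel but that of Cav2, where 2 of them stand at 139 and 198.

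The difference of the Jcad mouse means, dormant minus proliferating, was −5.08 on the mean log2 scale (SE 1.17), from 1.66 ± 1.68 in dormant and 6.74 ± 1.71 in proliferating cells (SD, n = 6 mice each). Without cell 6 alone it was −4.86. With all cells it ranked 4 from the lowest of 11843 differences, whose median was −0.35. Within the 4 mice with both states the difference was negative in each, at −6.97 in mouse 360, −2.98 in mouse 369, −4.28 in mouse 452 and −0.84 in mouse 1185, and its average was −3.77 (SE 1.24). These means count cells at 0, so they combine the share of cells with the transcript and its level, and are not fold changes within a cell. Fewer cells with Jcad and less Jcad RNA per cell cannot be told apart in a mouse mean.

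The low-label cells held no Jcad read in any of the 6 cells, which for counting error alone allows a share of up to 50% of such cells. Removing them took mice 244 and 360 out of the dormant group and left 4 dormant means. Jcad then stood above 0 in 13 of 22 labelled dormant cells, with a median of 8.30 normalised reads, against 24 of 29 proliferating cells and a median of 136. The difference was −3.82 (SE 1.21), and −3.60 (SE 1.15) when cell 6 was left out as well. Among the 3 mice that still had both states it was −1.68 in mouse 369, −4.28 in mouse 452 and −0.84 in mouse 1185. Jcad was thus lower in the dormant cells of each of these mice, least so in mouse 1185.

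Leaving out all leukocyte-rich cells gave a more mixed picture for Jcad. It was above 0 in 8 of 13 dormant cells and in 16 of 20 proliferating cells, with medians of 80.4 and 114 normalised reads. The difference was −3.72 (SE 1.79) over 4 dormant and 6 proliferating means, and −2.85 (SE 1.54) over 4 and 5 means without cell 6, which was the only cell mouse 268 had left. In the 3 mice with both states it was −1.26 in mouse 369, −6.27 in mouse 452 and 0.18 in mouse 1185. Mouse 1185, which held 8 of those 13 dormant cells, thus did not show the lower level. All 5 proliferating cells at 0 and 9 labelled dormant cells at 0 were in mice 369, 452, 1184 and 1185.

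Because Jcad is known from endothelial junctions, endothelial markers were set beside it. Of 10 such markers 4 had values here, and Cdh5, Kdr, Tie1, Tek, Emcn and Cldn5 had none. Pecam1 was above 0 in 4 of 57 cells, Esam in 1, Vwf in 6 and Egfl7 in 25. The summed level of the 4 genes was 0 to 145 normalised reads in dormant cells and 0 to 107 in proliferating cells, with 0 to 3 of the 4 above 0 in a dormant cell and 0 to 2 in a proliferating cell. Of 10 osteoblast and stromal markers, Runx2, Alpl and Pdgfrb had values here, and the others, Col1a1 among them, had none. Runx2 was above 0 in 39 of 57 cells, 37 of them labelled, with a highest value of 264 normalised reads, while Alpl was above 0 in 1 cell and Pdgfrb in 4.

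**Figure D2:**
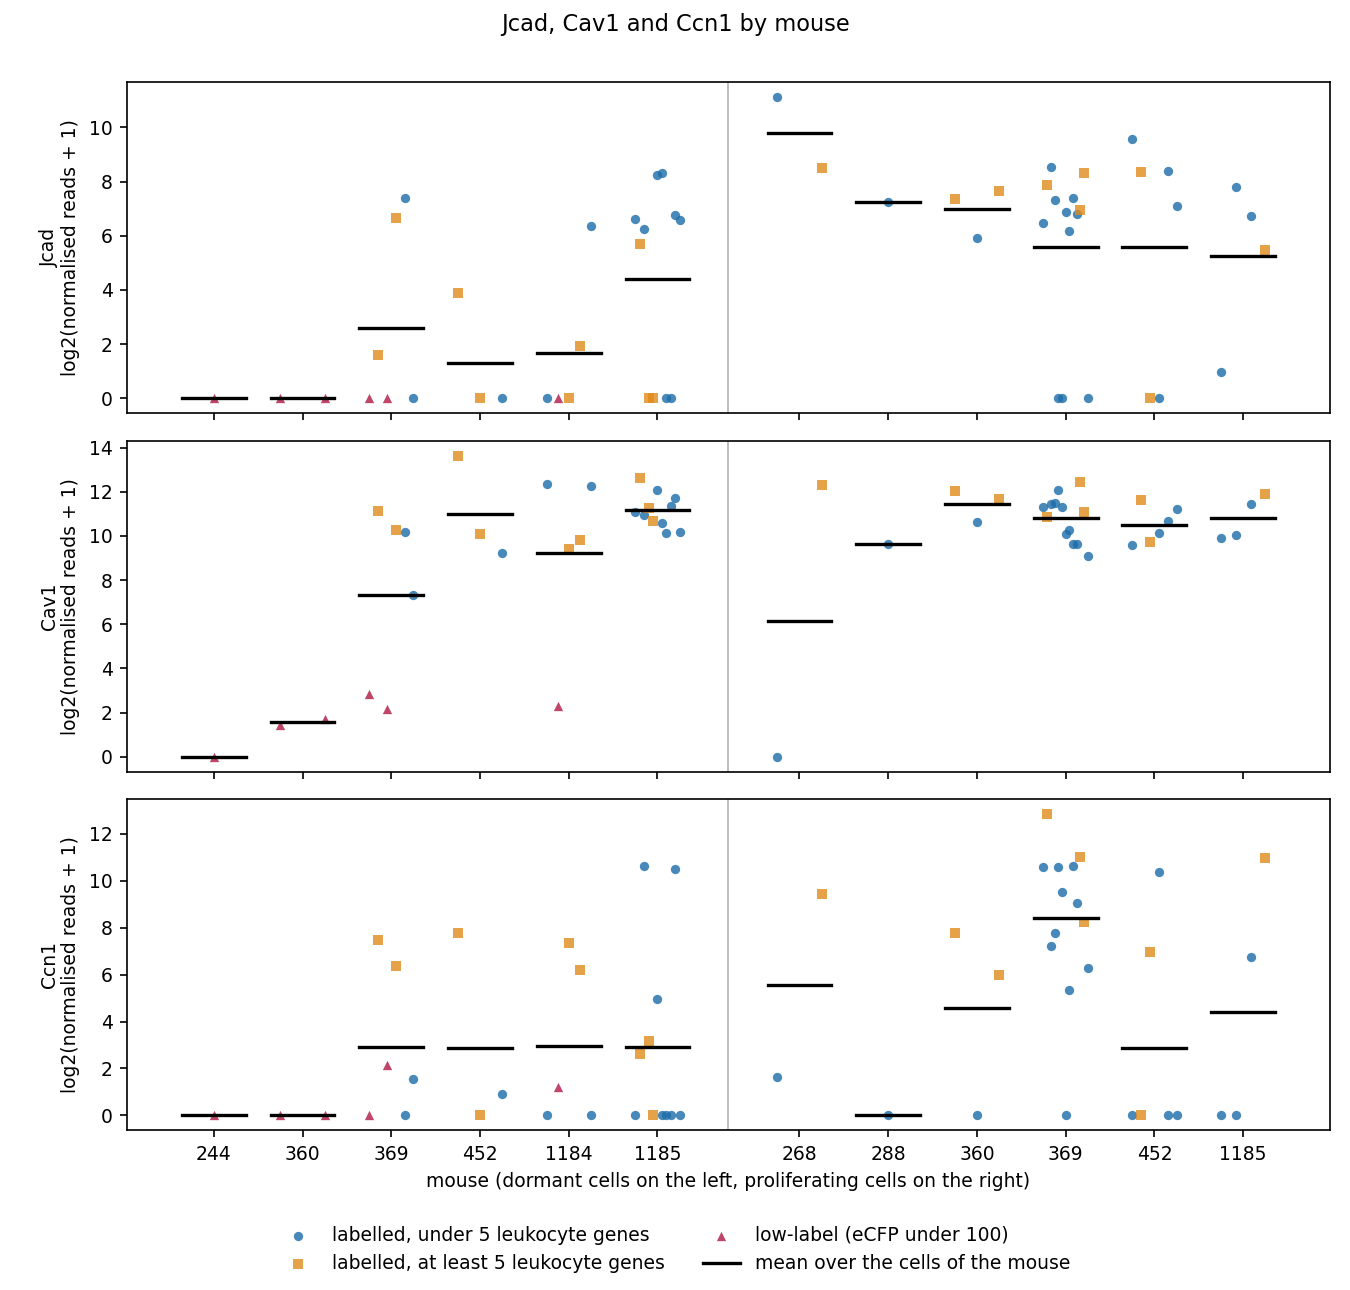
Jcad, Cav1 and Ccn1 in each cell, by mouse, as log2(normalised reads + 1), dormant cells on the left and proliferating cells on the right. Points are cells, and black lines are the mean over the cells of a mouse, the unit of comparison. All 6 dormant means of Jcad, 0 to 4.41, lie under the proliferating means, 5.24 to 9.80, while Cav1 is near 0 in dormant cells of mice 244 and 360 and Ccn1 is highest in proliferating cells of mouse 369.

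Cav1, which encodes the main coat protein of caveolae, was abundant in nearly every labelled cell of both states. All 22 labelled dormant cells had it, with a lowest, median and highest value of 160, 1829 and 12623 normalised reads. Of the proliferating cells 28 of 29 had it, with a lowest, median and highest value of 0, 1874 and 5551. The 1 cell at 0 was again cell 6 of mouse 268. The 6 low-label cells stood far under this range, at 0 to 6.26 normalised reads, or at most 3 reads.

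The difference in Cav1 between the states followed the low-label cells. With all cells it was −3.18 (SE 1.63), from 6.71 ± 4.82 in dormant and 9.90 ± 1.93 in proliferating cells (SD, n = 6 mice each). Without the low-label cells it was 0.81 (SE 0.79), from 10.71 ± 0.66 in 4 dormant means and 9.90 ± 1.93 in 6 proliferating means. Without cell 6 as well it was −0.22 (SE 0.46). In single mice the difference with all cells was −9.86 in mouse 360, where both dormant cells were low-label, and −3.51 in mouse 369, where 2 of 6 were. It was 0.48 in mouse 452 and 0.33 in mouse 1185, which had none. The levels of labelled dormant and labelled proliferating cells overlapped.

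Cav2 encodes the partner that forms mixed oligomers with caveolin-1, and it lies next to Cav1. In the GENCODE annotation of GRCm38, Cav2 spans chr6:17281185-17289115 and Cav1 spans chr6:17306335-17341452, both on the plus strand and 17220 bases apart. Its lowest, median and highest values were 177, 767 and 2846 normalised reads in the 22 labelled dormant cells. In proliferating cells they were 0, 752 and 1830, with 28 of 29 cells above 0. Per kilobase of exon, the median level was 531 for Cav1 and 230 for Cav2 in labelled dormant cells, and 544 for Cav1 and 226 for Cav2 in proliferating cells. Cav1 was the higher of the pair per kilobase in 18 of 22 labelled dormant cells and in 23 of 29 proliferating cells.

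Cav2 differed from Cav1 in the low-label cells. It was at 198 and 139 normalised reads in the low-label cells of mouse 244 and in 1 of mouse 360, and at 0 to 2.28 in the other 4. Its difference between states with all cells was accordingly smaller than that of Cav1, at −1.36 (SE 1.00), and it was 0.56 (SE 0.89) without the low-label cells and −0.28 (SE 0.48) without cell 6 as well. Within the 4 mice it was negative in each, between −5.63 and −0.41, and within the 3 mice left without low-label cells it lay between −0.77 and 0.24.

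Wwtr1, the gene of TAZ, was the steadiest of the transcription genes. Its lowest, median and highest values were 126, 403 and 1489 normalised reads in the 22 labelled dormant cells. In the 29 proliferating cells they were 0, 445 and 979, cell 6 being the 1 cell at 0. All 6 low-label cells were at 0. The difference was −3.20 (SE 1.50) with all cells, 0.38 (SE 0.99) without low-label cells and −0.26 (SE 0.54) without cell 6 as well, so the levels in labelled cells overlapped.

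Yap1, the gene of YAP, was lower and patchier than Wwtr1. The transcript was present in 17 of 22 labelled dormant cells, with a lowest, median and highest value of 0, 52.2 and 391 normalised reads, and in 21 of 29 proliferating cells, with 0, 38.4 and 189. Per kilobase of exon the median level in labelled dormant cells was 84.2 for Wwtr1 and 5.64 for Yap1, and in proliferating cells 93.2 for Wwtr1 and 4.15 for Yap1. Wwtr1 was the higher of the pair per kilobase in all 22 labelled dormant cells and in 28 of 29 proliferating cells, the remaining cell having neither. RM1 cells in bone thus held more TAZ than YAP transcript per length in both states.

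The Yap1 difference was −1.88 (SE 1.18) with all cells and −0.12 (SE 1.22) without the low-label cells, in which Yap1 was at 0 throughout. Within single mice it was −0.55 in mouse 369 with all cells and 1.26 without the low-label cells, while in mice 452 and 1185, which had none, it was 0.30 and 0.26. Without leukocyte-rich cells it lay between 0.77 and 1.67 in these 3 mice. Without leukocyte-rich cells Yap1 was above 0 in 12 of 13 dormant cells and in 14 of 20 proliferating cells. Over all mice that choice gave 1.46 (SE 1.74), or 0.75 (SE 1.53) without cell 6, both smaller than their standard error.

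Tead1, whose product carries YAP and TAZ to DNA, was detected in about the same share of labelled cells in both states. Reads were found in 14 of 22 labelled dormant cells, with a lowest, median and highest value of 0, 21.8 and 420 normalised reads, and in 19 of 29 proliferating cells, with 0, 45.5 and 186. All 6 low-label cells were at 0. The difference was −1.06 (SE 1.08) with all cells, 0.54 (SE 1.13) without low-label cells and −0.02 (SE 1.30) without cell 6 as well.

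The targets form the third group, and for 2 of them a TEAD-type motif lies in the stretch before the gene's start. For the remaining target, Ccn2, no such stretch was held to search. The motif searched was CATTCC or its reverse complement GGAATG, in the 250 bases before each RefSeq start of GRCm38.p6. The forms cannot overlap each other. One or the other was present in 12.6% of 32851 such windows over all genes. Windows were held for 6 of the 9 genes, with none for Ccn2, Jcad and Tead1. The motif was present for Ccn1, Amotl2, Wwtr1 and Yap1, though not in the windows of Cav1 and Cav2. The 4 sites are shown with 12 bases on each side, read 5′ to 3′ on the strand of the gene, with the motif in capitals, because TEAD factors are the DNA-binding partners of YAP and TAZ.
Ccn1 (chr3:145650071-145650100, minus strand): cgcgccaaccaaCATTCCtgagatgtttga
Amotl2 (chr9:102717727-102717756, plus strand): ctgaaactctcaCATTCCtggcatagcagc
Wwtr1 (chr3:57576029-57576058, minus strand): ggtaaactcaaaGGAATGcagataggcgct
Yap1 (chr9:8004720-8004749, minus strand): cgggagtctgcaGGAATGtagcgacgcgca

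In Ccn1 and Amotl2 the motif reads CATTCC on the gene's own strand and starts 103 and 65 bases before the start. In Wwtr1 and Yap1 it reads GGAATG, 136 or 170 bases before the 2 starts of Wwtr1 and 141 bases before that of Yap1. The whole Ccn1 window, chr3:145649986-145650235 on the minus strand, is shown because Ccn1 was the target that varied most among cells.
Ccn1 window: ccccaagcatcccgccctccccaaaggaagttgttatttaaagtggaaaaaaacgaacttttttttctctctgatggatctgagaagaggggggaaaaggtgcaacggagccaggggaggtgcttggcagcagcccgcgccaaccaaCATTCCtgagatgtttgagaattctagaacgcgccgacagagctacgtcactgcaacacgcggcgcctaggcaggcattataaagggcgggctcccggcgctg
A match of 6 letters is a description of the sequence and not evidence of binding. GENCODE also gives Amotl2 starts upstream of the RefSeq one, from position 102716672, so its window is one of several.

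Ccn1 encodes a secreted matrix protein (also called CYR61) and is among the most used readouts of YAP activity, and it also answers to serum and other acute stimuli. Of the labelled dormant cells 12 of 22 had it, with a lowest, median and highest value of 0, 1.39 and 1573 normalised reads. Of the proliferating cells 20 of 29 had it, with 0, 124 and 7254. Low-label cells held at most 3.46 normalised reads. Both states held cells at 0 and cells with high values, so the groups overlapped.

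Most of the high proliferating cells came from 1 mouse. In mouse 369, Ccn1 was above 0 in 3 of 4 labelled dormant cells and in 12 of 13 proliferating cells, with medians of 41.3 and 536 normalised reads. In the other mice 9 of 18 labelled dormant cells and 8 of 16 proliferating cells had it, with medians of 0.430 and 1.05. The difference of mouse means with all cells was −2.36 (SE 1.26), from 1.94 ± 1.51 in dormant and 4.31 ± 2.79 in proliferating cells (SD, n = 6 mice each). Within mice it was −4.59 in mouse 360, −5.47 in mouse 369, −0.0035 in mouse 452 and −1.53 in mouse 1185. Without mouse 369 the difference over the remaining mice was −1.74, the smallest of the values with 1 mouse left out. Without low-label cells it was −1.05 (SE 1.38), and −1.70 (SE 1.61) without cell 6 as well.

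Without leukocyte-rich cells Ccn1 was above 0 in 5 of 13 dormant cells and in 12 of 20 proliferating cells, with medians of 0 and 58.4 normalised reads. Of these 5 dormant cells, 2 held at least 50 normalised reads, both in mouse 1185. In mouse 1185 the difference was then 1.01, against −6.93 in mouse 369. The part of leukocyte transcripts in the Ccn1 values was not tested.

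Amotl2, an angiomotin family gene whose product binds YAP and which YAP switches on, was sparse. Amotl2 was above 0 in 7 of 22 labelled dormant cells, with a highest value of 144 normalised reads, and in 13 of 29 proliferating cells, with a highest value of 260. The median was 0 in both states. Mouse 369 again held 9 of the 13 proliferating cells with the transcript. The difference was −1.15 (SE 0.88) with all cells, −0.43 (SE 1.02) without low-label cells and −0.97 (SE 1.28) without cell 6 as well.

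Ccn2, the matrix gene also called CTGF and the other common YAP readout, was almost absent from these cells. No read was found in any of 28 dormant cells, 0 of 28, which for counting error alone allows a share of up to 10.7%. In proliferating cells 3 of 29 had it, at 126, 71.9 and 26.3 normalised reads in mice 369, 1185 and 360. With 3 cells it was too rare for the filter of 6 cells above 0 and was not tested. All 3 cells also had Ccn1, Amotl2, Yap1 and Wwtr1 above 0.

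Across cells the targets Ccn1 and Amotl2 moved together. Ccn1 and Amotl2 had a Spearman correlation of 0.57 over the 51 labelled cells, 0.37 over the 22 dormant and 0.68 over the 29 proliferating cells. It was 0.67 within the 13 proliferating cells of mouse 369 and 0.55 over the 34 labelled cells of the other mice. Of the 13 proliferating cells with Amotl2, 12 also had Ccn1, while 8 had Ccn1 alone. These cells share mice and libraries differ in complexity, with correlations to the number of genes above 0 of 0.29 for Ccn1 and 0.40 for Amotl2.

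Cav1 and Tead1 were the most closely related pair. Their Spearman correlation was 0.64 over the 51 labelled cells, 0.62 over the dormant and 0.72 over the proliferating cells. Cav1 itself followed the number of genes above 0, with a correlation of 0.51, and Tead1 did so with 0.48. Cav1 and Cav2, although neighbours on the chromosome, had a lower correlation of 0.35 over the same cells. Jcad had correlations between −0.10 and 0.23 with the other genes over the 51 cells. Over the 22 dormant cells they reached 0.35 with Amotl2, 0.35 with Tead1 and 0.27 with Cav1, where Jcad also had a correlation of 0.56 with the number of genes above 0. Over the 29 proliferating cells the same correlations were 0.01, 0.18 and 0.02, that with the number of genes −0.02 and that with Ccn1 −0.22.

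**Figure D3:**
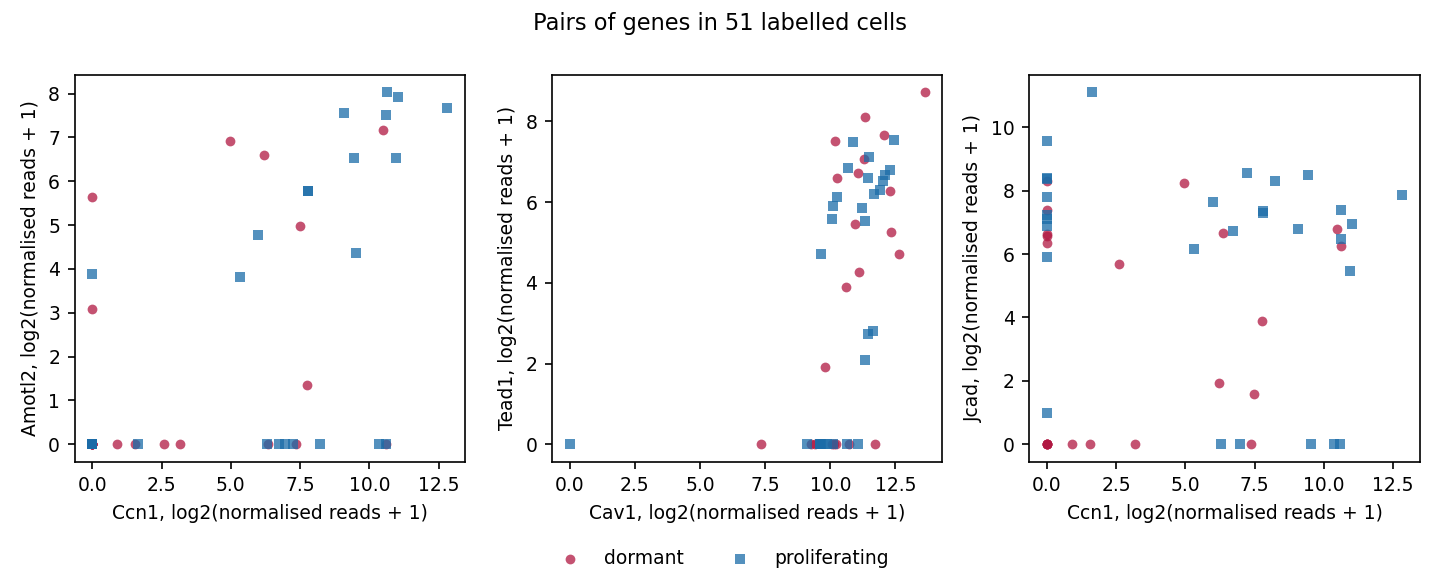
Pairs of genes in the 51 labelled cells, each axis as log2(normalised reads + 1), with dormant cells as red circles and proliferating cells as blue squares. Amotl2 was above 0 mostly where Ccn1 was (Spearman 0.57), Tead1 was above 0 mostly at the higher Cav1 values (0.64), and Jcad and Ccn1 had a correlation of 0.01.

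Set side by side over all mice, Jcad and Ccn1 kept the sign of their difference under each choice of cells and the other 6 genes did not. With all cells, 8 of 8 tested genes had a negative difference. Their median was −2.12, and that of all genes −0.35. Without low-label cells 4 were negative and 4 positive, and the medians were 0.13 for the list and 0.09 for all genes. Without cell 6 as well, 8 were negative, and the medians were −0.42 and −0.18. Jcad lay between −5.08 and −2.85 and Ccn1 between −2.36 and −1.05 under all 5 choices of cells. Cav1, Cav2, Amotl2, Tead1, Yap1 and Wwtr1 took either sign over all mice. These choices share cells, and the Ccn1 value of −1.05 was smaller than its standard error. Within mouse 1185 without leukocyte-rich cells both differences were positive, at 0.18 for Jcad and 1.01 for Ccn1. Wwtr1 was then negative in each mouse with both states, at −0.57 in mouse 369, −0.36 in mouse 452 and −0.60 in mouse 1185.

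**Figure D4:**
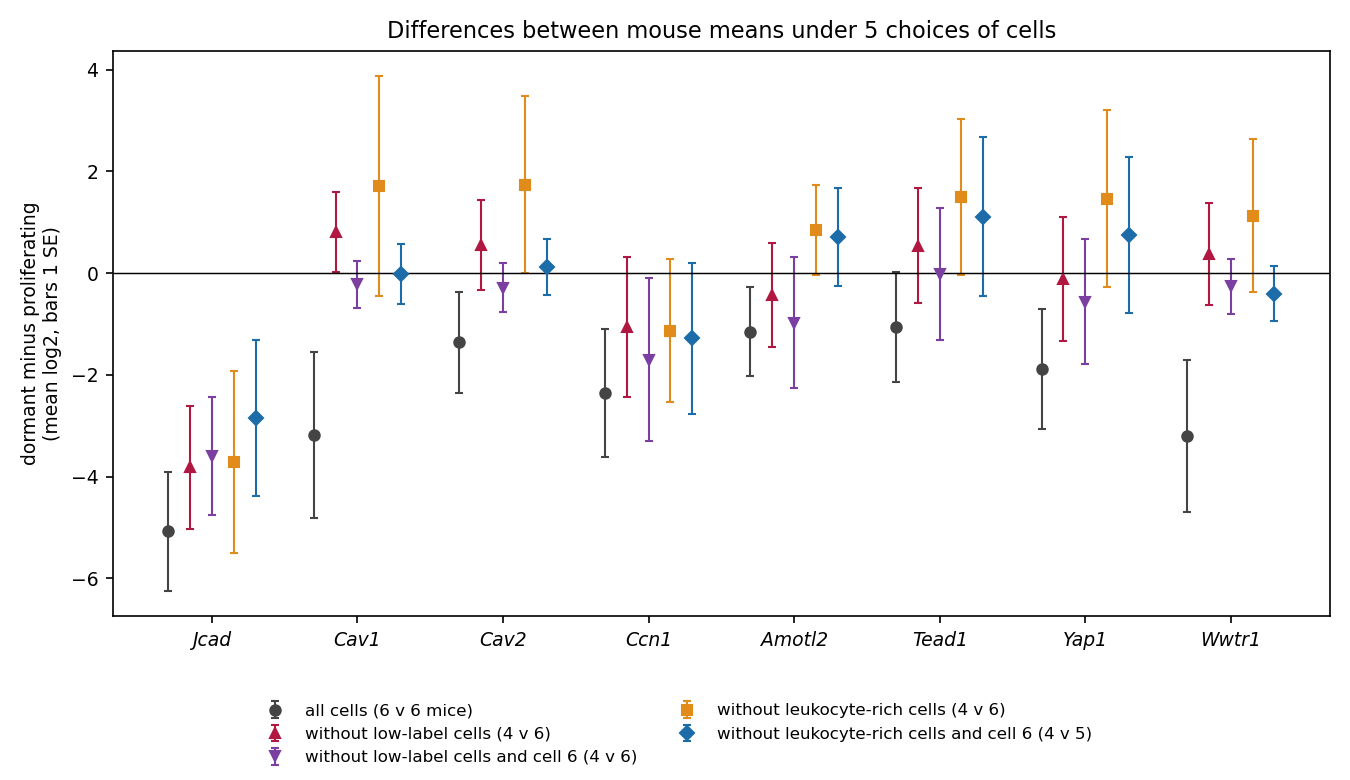
Difference between mouse means, dormant minus proliferating, on the mean log2 scale for the 8 genes tested, under 5 choices of cells, with bars of 1 SE. Jcad stays between −5.08 and −2.85 under all 5, whereas Cav1 stands at −3.18 with all cells and between −0.22 and 1.71 without low-label or leukocyte-rich cells.

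In the test across all genes (limma, adjusted for 11843 genes), 0% of genes passed an adjusted p of 0.05 over all mice, and 0 of the 8 listed genes did. At an unadjusted p under 0.05 there were 2 of the 8, both lower in dormant cells, where 6.22% of all genes were. Within the 4 mice 0% of 11565 genes passed and again 0 of 8, with 5 of 8 lower at an unadjusted p under 0.05 and 8.21% of all genes. On the recovered reads edgeR called 0% of genes in both comparisons, with 1 listed gene lower at an unadjusted p under 0.05 over all mice, where 0.996% of all genes were, and 0 within mice, where 0.856% were. DESeq2 called 2.55% over all mice, with Jcad as the 1 listed gene, and 1.88% within mice, with none. Since the list was chosen on this comparison, these counts add nothing to the values above. Libraries of each state were made in batches of their own, and an effect of the batch cannot be told apart from one of the state.

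Among the other genes of the Hippo cascade none passed the test. Of 15 upstream genes, all tested, 11 were lower and 4 higher in dormant cells, with a median of −0.65, next to −0.35 for all genes. Without low-label cells 6 were lower and 9 higher, with medians of 0.03 for the list and 0.09 for all genes, and without cell 6 as well 11 were lower and 4 higher, with medians of −0.56 and −0.18. Without leukocyte-rich cells 4 were lower and 11 higher, with medians of 0.77 and 0.54. Lats1, a kinase that phosphorylates YAP, stood at 3.01 ± 2.05 in dormant and 6.24 ± 2.00 in proliferating cells on the mean log2 scale (SD, n = 6 mice each), a difference of −3.23 (SE 1.24, limma adjusted p = 0.450). It was −2.46 (SE 1.28) without low-label cells and −2.32 (SE 1.28) without cell 6 as well. Lats2, the related kinase, differed by −2.15 (SE 1.24) with all cells and −2.19 without low-label cells, with or without cell 6. Its proliferating mean in mouse 288, which rests on 1 cell, was 8.39, against 0 to 5.42 in the other proliferating means. Wwc1, the gene of the upstream scaffold KIBRA, differed by −2.56 (SE 1.35) with all cells by 0.55 (SE 1.03) without low-label cells and by −0.13 (SE 0.79) without cell 6 as well. Amot, the founding angiomotin gene, ran the other way at 1.11 (SE 0.60) with all cells and 1.52 (SE 0.59) without low-label cells, from 1.96 ± 0.79 in 4 dormant and 0.44 ± 0.58 in 6 proliferating means.

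Of 6 genes for other TEAD factors and their VGLL partners, 3 were tested and all 3 were lower in dormant cells, none passing. Tead4 differed by −1.68 (SE 1.14), the repressive partner Vgll4 by −1.16 (SE 1.29) and Tead2 by −0.34 (SE 1.23). Without low-label cells Vgll4 differed by −2.27 (SE 1.19), Tead4 by −0.42 (SE 1.28) and Tead2 by 0.05 (SE 1.31). Without cell 6 as well Tead4 differed by 0.22 (SE 1.22) and Tead2 by −0.19 (SE 1.34).

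Of 19 other genes known as YAP targets, 12 were lower and 7 higher, with a median of −0.42, next to −0.35 for all genes. Without low-label cells 17 were tested, 7 lower and 10 higher, with medians of 0.08 for the list and 0.09 for all genes, and without cell 6 as well 9 were lower and 8 higher. Lats2 and Ptpn14 are in this list as well as among the upstream genes, as both are feedback targets. Nuak2, a kinase gene, differed by 1.89 (SE 0.83, limma adjusted p = 0.479), and had too few cells above 0 to be tested once low-label cells were left out. The growth factor binding protein gene Igfbp3 differed by −1.03 (SE 0.60) and the TGF-beta ligand gene Tgfb2 by −0.73 (SE 0.56), both from low levels. The Igfbp3 mean was 4.33 and 1.97 in proliferating cells of mice 369 and 360, and 0 to 0.15 in all other means of either state. Without mouse 360 the Tgfb2 difference was −0.07.

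Of 8 other caveolar genes, 7 were tested and all 7 were lower in dormant cells with all cells, with a median of −1.09. The cavin gene Cavin3 stood at 4.52 ± 3.84 in dormant and 8.41 ± 0.80 in proliferating cells (SD, n = 6 mice each), a difference of −3.90 (SE 1.35, limma adjusted p = 0.439). Ehd2, whose product holds the neck of caveolae, differed by −3.25 (SE 1.14), Cavin2 by −1.53 (SE 0.95) and Cavin1, the main cavin, by −1.09 (SE 1.37). The Cavin2 mean was 7.97 in proliferating cells of mouse 360 and 0 to 1.05 in all other means of either state, and without mouse 360 Cavin2 had too few cells above 0 to be tested. The list without mouse 360 held 3 lower and 3 higher genes with a median of 0.11, and Cavin1 differed by 0.23. Without low-label cells Cavin3 differed by −0.67 (SE 0.82), Ehd2 by −1.52 (SE 1.10), Cavin2 by −1.48 (SE 1.17) and Cavin1 by 1.33 (SE 1.38). The list then held 3 negative and 4 positive values with a median of 0.25, next to 0.09 for all genes, and the same counts and median without cell 6 as well. Without leukocyte-rich cells and cell 6, Ehd2 differed by 0.025.

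**Figure D5:**
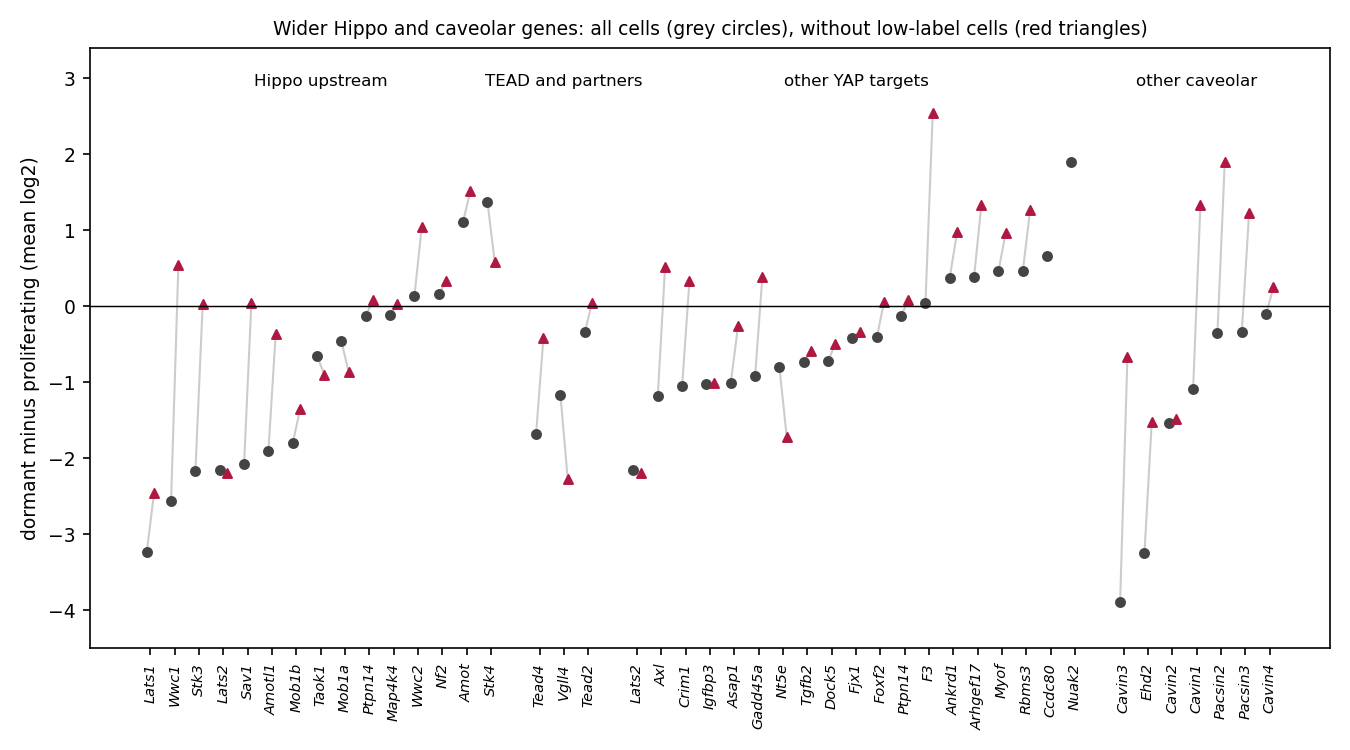
Difference between mouse means, dormant minus proliferating, for the tested genes of 4 wider lists, with all cells (grey circles) and without low-label cells (red triangles), each on the mean log2 scale. Lats2 and Ptpn14 are drawn in both lists that hold them, and Ccdc80 and Nuak2 were not tested without low-label cells. Wwc1, Tead2 and Cavin1 are among the genes that cross 0 between the choices, while Lats1, Lats2 and Cavin2 stay negative and Amot stays positive.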

How the data were processed

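Each sorted cell gave SMARTer full-length cDNA with ERCC spike-ins and a Nextera XT library, made in batches of 1 state each, per the labels' protocols. STAR, RSEM, GRCm38 and mm10 are named without versions in the submitters' processing notes. The deposited values are a signal, reads normalised by the authors with BASiCS per the series text. Within each cell 100% of gene values were whole multiples of 1 step (tolerance 0.01 reads), so reads were recovered. Each deposited sample is a cell. Cells of a mouse and state were averaged as log2(value + 1), which understates differences of low genes, and the mouse means were compared with limma 3.58.1 (trend, robust), unblocked over all mice and blocked by mouse within the 4 mice with both states. A gene had to be above 0 in at least 6 cells, with Benjamini-Hochberg adjustment at 0.05. The pairing comes from the labels, and deviations of paired means correlated at 0.00, 0.34, 0.17 and −0.01 in mice 360, 369, 452 and 1185. edgeR 4.0.16 and DESeq2 1.42.0 on reads summed per mouse and state, and other pseudocounts, filters, scalings, weights, cells and mice, were alternatives. The scripts were tested on simulated data. The highest correlation between 2 cells was 0.89, so no cell was counted as a repeat of another.

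The 9 genes, the wider lists, the cell classes and the rule for named genes were chosen with earlier results of these data known. The rule took all 9 genes, up to 4 genes per wider list with the smallest unadjusted limma p over all mice, the 5 genes most like Jcad, Cav1 and Ccn1, and identity genes. Levels per kilobase used the union of exons in GENCODE M21 (GRCm38), and start-site windows came from RefSeq (GRCm38.p6). P-values measure the spread of these mouse and state means, each of 1 to 13 cells, so spread between mice and between cells is mixed. In the unblocked fit the 4 mice with both states gave a mean to each state, and these were treated as independent. Limits from a count of 0 used 3 counts and cover counting error only. The series text states 32 proliferating cells, of which 29 were analysed here. Python 3.11.15 (matplotlib 3.10.9, scipy 1.17.1, pandas 2.3.3) and R 4.3.3 were used.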

Additional observations from a re-analysis of the deposited data

Results flagged for a closer look

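Among 17 sets of 6 mouse means of the 9 genes (a gene in a state), 4 held a mean far from the others by Dixon's criterion, which flags about 1 in 20 sets by chance. In proliferating cells the mean of mouse 268 was far under those of the other 5 mice for Cav1, at 6.15 against 9.62 in the next mouse, for Cav2, at 5.04 against 8.38, and for Wwtr1, at 3.84 against 8.50. That mouse had 2 proliferating cells, 1 of which was cell 6 with 0 in all 3 genes. The Tead1 mean of mouse 288 in proliferating cells was 0 against 3.39 in the next mouse, and it rests on 1 cell.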

How the results depend on the processing

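Over all mice the median difference of the tested members was −2.12. It was 0.130 without low-label cells, 1.29 without leukocyte-rich cells (the same cells as without low-label and leukocyte-rich cells), 0.673 without cells with at least 9 pan-leukocyte genes, −0.421 without low-label cells and cell 6, and 0.054 without leukocyte-rich cells and cell 6, and the last 3 choices were made after seeing the data. The construction of these choices, which leave 4 dormant mice, is part of each change. Within mice it was −2.61, and −0.309, −0.669 and −0.288 without low-label, leukocyte-rich and 9-gene cells, all over 3 mice. Leaving out 1 mouse at a time gave −2.58 to −1.32 over all mice and −3.27 to −1.05 within mice. Leaving out mouse 360 gave both of the values nearest 0, and without it the Yap1 difference within mice was 0.0035, against −1.84 with it. Without cell 6 alone, also chosen after seeing the data, the 8 differences over all mice lay between −4.86 and −1.63.

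DESeq2 called 302 genes over all mice, 1 of them a member, and 218 within mice, where limma and edgeR called 0, and the cause was not tested. With the mouse as a replicate block over all mice the median was −2.14, and without the block within mice −2.61, with 0 genes called in both. Since limma called no gene under any choice, the calls cannot show an effect of the pairing. At an unadjusted limma p under 0.05 there were 5 of the 8 members within mice with the block and 3 without it. The median of all genes over all mice was −0.164 under median-of-ratios scaling, against −0.348 under the authors' scaling, and all 8 members kept a negative difference under both scalings tried. The Jcad and Ccn1 differences were negative under all 29 alternatives over all mice and all 23 within mice, Jcad between −7.04 and −2.85 over all mice. Within mice the differences of Cav1, Cav2 and Wwtr1 were negative under all 23 as well. Cells at 0 and 1 cell in mice 244 and 288 limit the precision.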

Other observations

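The genes whose levels ran most like 3 of the members were taken by Spearman correlation over the 51 labelled cells, among genes above 0 in at least 15 of them. For Jcad these were 1810032O08Rik (0.58), the zinc finger gene Zfp868 (0.54), the small GTPase gene Arl5a (0.53), the Mediator subunit gene Med23 (0.52) and the importin gene Ipo7 (0.51). Within states the correlation of Jcad with Ipo7 was 0.56 in dormant and 0.42 in proliferating cells. For Cav1 they were Fastkd2 (0.70), the ephrin receptor gene Epha2 (0.68), Trappc2 (0.68), Spopl (0.67) and Ssr3 (0.66). Epha2 itself had a correlation of 0.63 with the number of genes above 0, so depth of detection moves with this group. For Ccn1 they were Srrm1 (0.66), the polo-like kinase gene Plk2 (0.62), 4632427E13Rik (0.61), the sphingomyelin synthase gene Sgms2 (0.61) and the homeobox gene Hhex (0.61). Plk2 had a correlation with Ccn1 of 0.65 in dormant and 0.62 in proliferating cells. These are the highest of 9887 correlations each and carry no test.

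Cell 6 of mouse 268 had 2 of the 9 genes above 0, Jcad at 2199 and Ccn1 at 2.10 normalised reads, with eCFP, Luc2 and Krt8 above 0. The 6 low-label cells had 1 to 4 of the 9 genes above 0. Only 2 cells, both proliferating and leukocyte-rich, in mice 360 and 1185, had all 9.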
